A study of Mus musculus with 12 samples.

Results

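The genes described here are 36 genes of DNA replication and the S phase of the cell cycle. They were taken by symbol from a list, out of the 54351 gene rows of a mouse RNA sequencing count table. That list was chosen with earlier results of these data known. The list was sorted by role into 5 origin licensing genes, 10 genes of the replicative helicase, 12 genes of synthesis at the fork, 5 genes of nucleotide supply together with Uhrf1, and 4 genes of the E2F and cyclin E switch. All 36 rows were found, every one had at least 36 counts in every library, and all 36 passed the filter on low counts that left 20897 genes to test. The study sequenced poly(A) RNA of 12 samples in 4 groups of 3. LN3 thymus and LN3 spleen held cells of a T-cell acute lymphoblastic leukaemia, T-ALL, taken out of thymus and spleen of overtly sick mice of genotype LN3 tg. WT thymocytes and WT CD8 were cells of wildtype, tumour-free mice, from thymus and spleen. All samples carry the strain label C57BL/6. What the transgene is, its promoter and the age of the mice are not given here. Whether each of the 3 samples in a group is its own animal is not stated either, so a p-value speaks only of the spread among the samples at hand, and that spread may be technical.

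Organs were taken apart mechanically, and the only cells enriched afterwards were the WT CD8 cells, by negative selection to a stated purity of 85 to 95%. The leukaemia samples and the WT thymocytes therefore hold whatever other cells the organ gave up. The 8 listed T-lineage markers summed to 2655 to 4607 CPM in LN3 thymus and 2674 to 3089 in LN3 spleen. They summed to 2833 to 6046 in WT thymocytes and 1602 to 2433 in WT CD8. All 8 had counts in all 4 groups, but so did every marker found of the other cell types. Having counts therefore does not tell cell types apart. CPM here set a gene's count against the library total, scaled by TMM, a correction for differences in composition between libraries. They are not divided by transcript length, so they compare libraries and not genes.

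Before a cell copies its DNA, the origin recognition complex, Cdc6 and Cdt1 load the Mcm2-7 ring onto origins, which is called licensing. In S phase, cyclin E with its kinase and other kinases turn the ring into an active helicase by adding Cdc45 and the GINS complex, and polymerases, the Pcna clamp and its loaders then build the new strands. E2F transcription factors switch on many of these genes when cells leave G1, and in the thymus immature T-cell precursors divide fast while most CD8 T cells of a healthy spleen rest.

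The promoters of the 36 genes were searched for 4 spellings of the E2F site (TTTCCCGC, TTTCGCGC, TTTGCCGC and TTTGGCGC) on both strands. RefSeq promoters of build GRCm38.p6, from 250 bases before the listed start to 50 bases from it on, were at hand for 29 of the 36 genes. At least 1 of the 4 octamers stood in 13 of the 29 promoters (44.8%), against 2.60% of the 27025 RefSeq genes with a promoter and 1 of 18 promoters (5.56%) of a list of G2/M genes. TTTGAA, the core of the CHR element known from G2/M promoters, stood in 4 of 29 (13.8%) of the replication promoters, 13 of 18 (72.2%) of the G2/M promoters and 20.2% of all. CCAAT stood in 18 of 29 (62.1%), 15 of 18 (83.3%) and 41.1% of these. A match says only that the letters are in the window. The windows below are a selection of those with a match, from licensing, helicase and fork genes, Uhrf1 and E2f2. They are read on the strand of the gene, with each octamer or its reverse complement in capitals.
Orc1, chr4:108579417-108579444, plus strand: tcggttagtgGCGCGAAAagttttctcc
Cdc6, chr11:98908003-98908030, plus strand: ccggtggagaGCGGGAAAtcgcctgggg
Cdt1, chr8:122568037-122568064, plus strand: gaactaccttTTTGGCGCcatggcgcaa
Mcm5, chr8:75109346-75109373, plus strand: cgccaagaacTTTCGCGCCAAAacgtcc
Pola1, chrX:93632276-93632303, minus strand: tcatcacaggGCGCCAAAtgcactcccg
Rfc3, chr5:151651201-151651228, minus strand: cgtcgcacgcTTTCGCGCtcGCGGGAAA
Lig1, chr7:13278842-13278869, plus strand: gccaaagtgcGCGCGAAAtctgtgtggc
Uhrf1, chr17:56304118-56304145, plus strand: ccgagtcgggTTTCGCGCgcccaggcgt
E2f2, chr4:136172303-136172323, plus strand: cggcatatagTTTGGCGCtaa
The octamer began 27 bases before the listed start in Orc1, 138 before it in Cdc6 and Pola1, and 185 in Uhrf1, and lay after the start in Cdt1, Lig1 and E2f2. More than 1 start was listed for 5 of the 36 genes, among them Uhrf1, Lig1 and E2f2, and a match at any start was counted. In Uhrf1 and Lig1 the match belongs to a start further into the gene, and the window of the first start had 0 octamers. In E2f2 it belongs to the first start. The windows of Mcm5 and Rfc3 hold a pair each. In Mcm5 they overlap, beginning 153 and 149 bases before the start, and in Rfc3 one begins 10 bases before the start and the other at the start itself. Mcm6 had the most matches, 3, of which a pair overlaps. They lie within the 160 bases just before its start, shown whole because they hold both the overlapping pair and the lone octamer, and CCAAT in reverse letters (attgg) stands on either side of the lone octamer.
Mcm6, chr1:128359706-128359865, minus strand: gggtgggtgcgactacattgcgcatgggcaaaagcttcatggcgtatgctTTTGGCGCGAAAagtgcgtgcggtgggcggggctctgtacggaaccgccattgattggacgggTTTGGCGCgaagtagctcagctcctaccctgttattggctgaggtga

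Depth ran from 12694571 to 42483898 counts per library. A row annotated as ribosomal RNA, CT010467.1, took 4.61 to 10.5% of counts in LN3 thymus 2 and 3, all LN3 spleen libraries and WT thymocyte 3, and 0.440 to 1.45% in the other 6. WT thymocyte 3 also stood apart in base composition. The log2 CPM of each gene was set against its mean over the 12 libraries, for 9484 genes with a mean above 3. This deviation climbed by 1.08 for each 10 points of transcript GC content in WT thymocyte 3, with transcript length in the fit. The slopes were -0.341 to 0.129 in the other 11 libraries. Because the libraries are bulk RNA, fewer cells of a kind and less RNA per cell cannot be told apart in any value below. The summed level of the 36 genes was 5888, 7258 and 3777 CPM in LN3 thymus, against 3528, 3523 and 6011 CPM in WT thymocytes. In the spleen it was 7984, 4841 and 10356 CPM in LN3 spleen, against 927, 1661 and 1067 CPM in WT CD8. The thymus groups overlap and the spleen groups lie far apart.

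**Figure D1:**
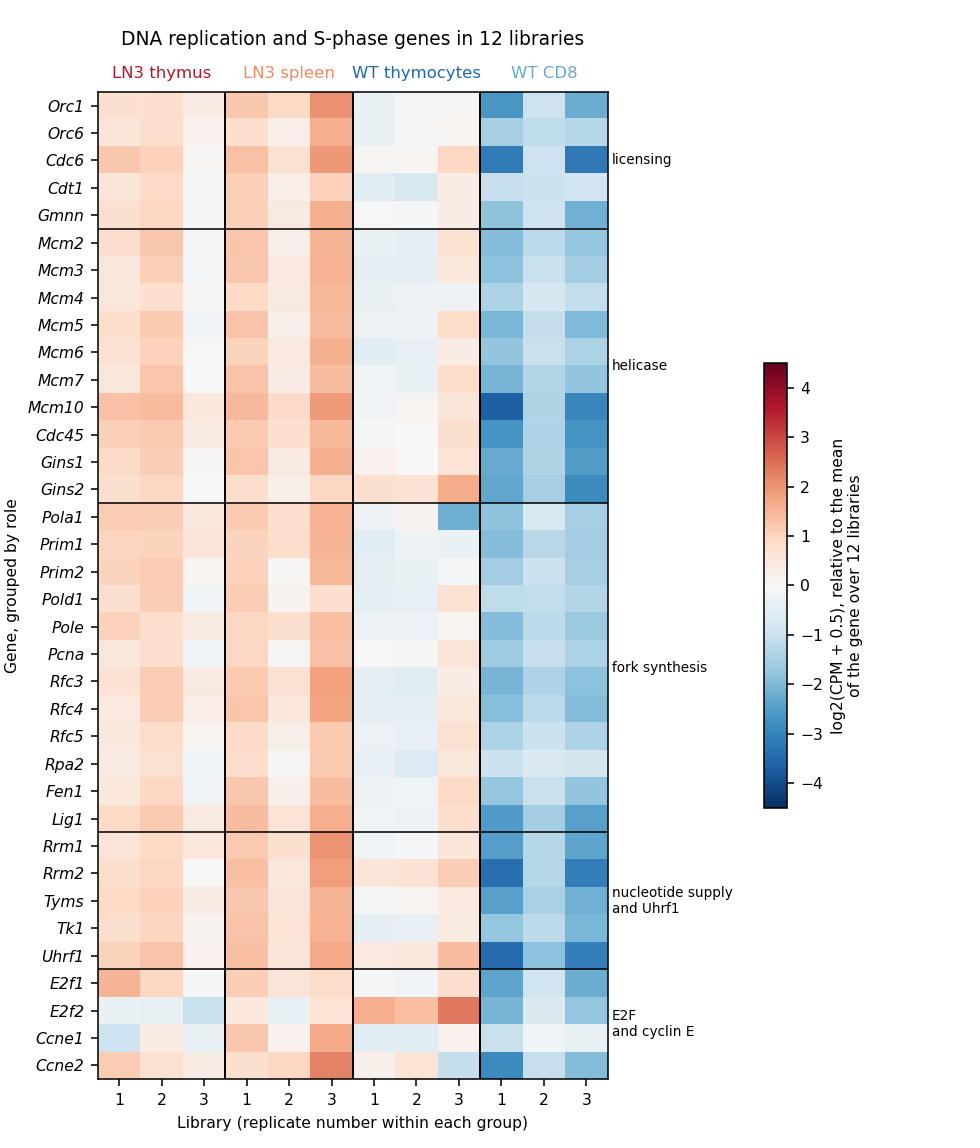
Each row is a gene and each column a library, in 4 groups of 3. Colour gives log2(CPM + 0.5) of the library minus the mean of that gene over the 12 libraries, from blue (lower) to red (higher). The 3 WT CD8 columns are blue for nearly every gene, LN3 spleen 3 is the reddest column, and E2f2 is the row in which WT thymocytes are reddest.

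The comparison in the spleen asked how leukaemia cells differ from CD8 T cells of a healthy spleen. All 36 genes were higher in LN3 spleen than in WT CD8, where 17.9% of all genes tested were called higher (edgeR quasi-likelihood test, Benjamini-Hochberg adjusted p below 0.05 over all genes). In all 36, the 3 LN3 spleen libraries lay above the 3 WT CD8 libraries, as they did for 27.5% of all genes. The log2 difference had a median of 2.71 over the 36 genes (6.56-fold), against -0.107 over all genes tested, and ran from 1.57 for Rpa2 to 3.91 for Uhrf1. By role, the medians were 2.72 for licensing, 2.74 for the helicase, 2.51 for fork synthesis, 3.35 for nucleotide supply and Uhrf1, and 2.13 for E2F and cyclin E.

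In the thymus, where the leukaemia is set against normal precursors that divide themselves, 1 gene was higher and 1 lower in LN3 thymus than in WT thymocytes. Among all genes tested, 6.06% were called higher and 5.21% lower, so the count of calls among the 36 is not above the background. The higher one was Prim1, the catalytic subunit of primase, and the lower one E2f2, a transcription factor that activates S-phase genes. At an unadjusted p under 0.05 there were 7 genes. Differences were positive in 33 of 36 genes with a median of 0.63 on the log2 scale (1.55-fold), against a median of -0.04 and 10044 positive of 20897 over all genes. Library ranges did not overlap in 8 genes, with LN3 thymus higher, and in E2f2, with LN3 thymus lower, while 14.4% and 12.8% of all genes were so separated.

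The scaling moves these values. With library totals in place of TMM, the median difference of all genes shifted by -0.192 in the thymus and -0.401 in the spleen. The median of the 36 genes was then 0.445 in the thymus, with 30 genes positive (Pcna, Uhrf1 and Ccne1 changed sign), and 2.26 in the spleen, with 36 positive. The share of calls over all genes that were higher was 53.8% in the thymus and 58.0% in the spleen with TMM, 38.2% and 40.0% with library totals, and 41.2% and 41.7% with upper-quartile scaling. Leaving out WT thymocyte 3 gave 4 genes called higher in the thymus (Cdt1, Prim1, Pole and Rfc3), leaving out LN3 thymus 3 or LN3 spleen 2 gave 2, and leaving out WT thymocyte 1 gave none. Split by the share of CT010467.1, LN3 thymus 1 against WT thymocytes 1 and 2 had 34 positive genes of 36 and a median of 0.897, and LN3 thymus 2 and 3 against WT thymocyte 3 had 22 positive genes and a median of 0.112. All LN3 spleen libraries and none of WT CD8 have the high share, so within the spleen pair the share and the group cannot be told apart. With the class of the share as a term over all 12 libraries, 31 of 36 genes were called higher in the spleen. Only the thymus groups hold libraries of both classes, so they alone set this term. The spleen values with the term, here and below, therefore carry over a difference seen in the thymus and do not separate share from group.

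**Figure D2:**
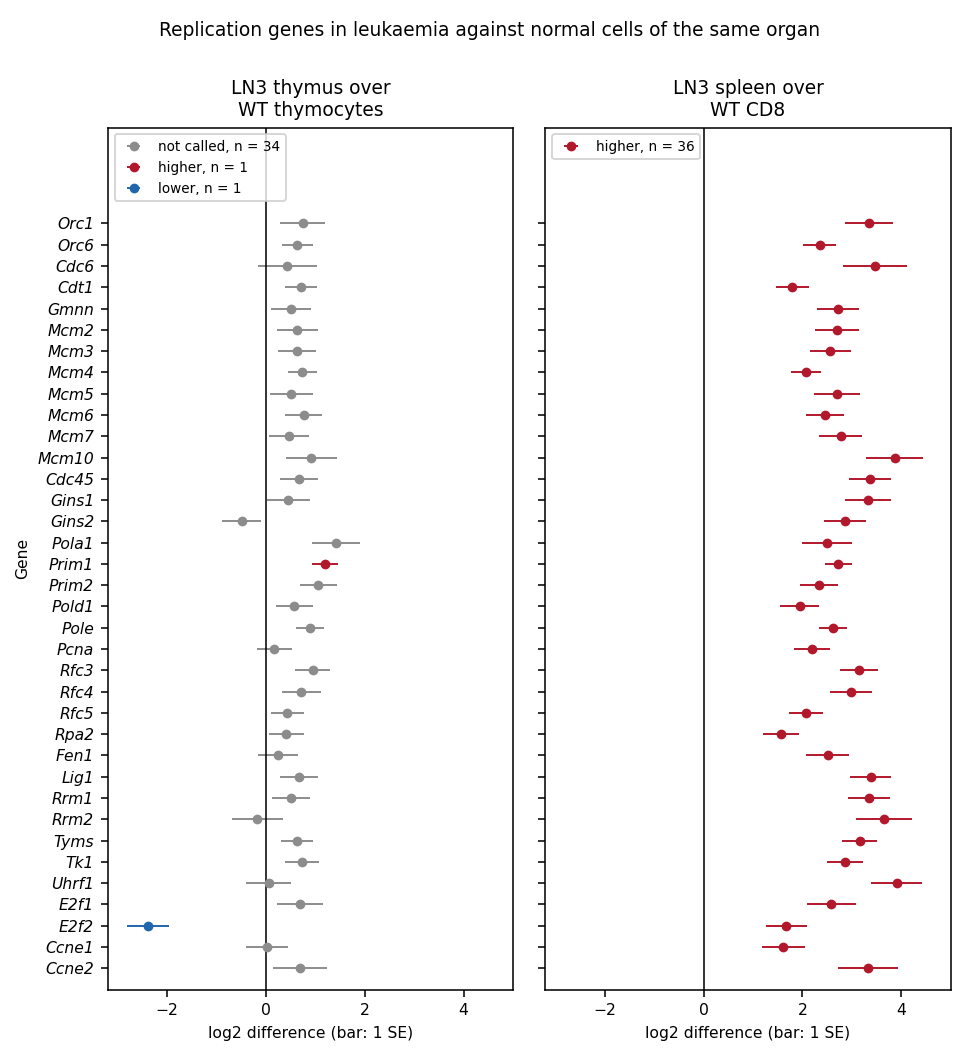
The x axis gives the log2 difference of leukaemia over normal cells in the thymus (left) and spleen (right), with 1 SE, and the y axis the 36 genes. In the left panel 34 grey points are not called, Prim1 is called higher and E2f2 lower, and in the right panel all 36 points are called higher, between 1.57 and 3.91.

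Among the licensing genes, Orc1 encodes the largest subunit of the origin recognition complex. Orc1 had 24.1, 25.9 and 18.8 CPM in LN3 thymus libraries 1 to 3, against 11.9, 13.9 and 15.3 CPM in WT thymocytes, without overlap, and the difference did not pass the test (log2 difference 0.74, SE 0.45, adjusted p = 0.345). In the spleen it had 34.4, 27.7 and 62.2 CPM in LN3 spleen, against 1.97, 7.47 and 2.69 CPM in WT CD8. Every LN3 spleen library was above every WT CD8 library, a gap of 10.2-fold (log2 difference 3.35, SE 0.49, adjusted p = 0.000409).

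Cdc6, which joins the origin complex and helps load the helicase, showed the largest spleen difference of the licensing genes. Levels were 107, 68.6 and 165 CPM in LN3 spleen, against 4.21, 22.3 and 4.09 CPM in WT CD8, where library 2 was the highest (log2 difference 3.47, SE 0.65, adjusted p = 0.00202). LN3 thymus had 99.0, 88.3 and 43.7 CPM and WT thymocytes 44.3, 45.6 and 81.3 CPM, with WT thymocyte 3 among the leukaemia values (log2 difference 0.43, SE 0.59, adjusted p = 0.719).

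Cdt1, the partner of Cdc6 in loading, was the licensing gene with the smallest spleen difference. It had 189.7, 112 and 186 CPM in LN3 spleen, against 44.4, 46.1 and 50.0 CPM in WT CD8, and WT CD8 lay only a little below WT thymocytes 1 and 2 (log2 difference 1.80, SE 0.33, adjusted p = 0.00189). In LN3 thymus it had 132, 164 and 84.7 CPM, against 64.7, 54.9 and 114 CPM in WT thymocytes (log2 difference 0.70, SE 0.33, adjusted p = 0.204). Its spleen call was lost when the class of CT010467.1 share entered the fit (edgeR adjusted p = 0.0604, range 1.50e-05 to 0.0604 over the alternatives). Orc6, another subunit of the origin complex, differed by 2.35 in the spleen and 0.64 in the thymus on the log2 scale, and Gmnn, the inhibitor that keeps Cdt1 from loading a second time, by 2.72 and 0.51.

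The 6 subunits of the Mcm2-7 ring, the core of the helicase, had log2 differences of 2.07 (Mcm4) to 2.78 (Mcm7) in the spleen, all called, and of 0.47 (Mcm7) to 0.77 (Mcm6) in the thymus, none called. Mcm2 had 358, 496 and 202 CPM in LN3 thymus, against 176, 159 and 345 CPM in WT thymocytes, where WT thymocyte 3 lay above LN3 thymus 3 (log2 difference 0.63, SE 0.42, adjusted p = 0.394). In the spleen Mcm2 had 515, 258 and 615 CPM in LN3 spleen, against 54.4, 93.8 and 64.2 CPM in WT CD8 (log2 difference 2.71, SE 0.45, adjusted p = 0.000927).

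Mcm4 was the ring subunit whose thymus ranges were apart. It had 243, 288 and 174 CPM in LN3 thymus, against 135, 142 and 146 CPM in WT thymocytes, whose 3 libraries were close together (log2 difference 0.74, SE 0.30, adjusted p = 0.142). LN3 spleen had 319.6, 222 and 473 CPM, against 62.9, 99.2 and 79.0 CPM in WT CD8, the smallest spleen difference of the helicase genes (log2 difference 2.07, SE 0.31, adjusted p = 0.000460).

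Mcm10, which helps the assembled helicase to fire, had the largest difference of the helicase genes in both organs, called only in the spleen. LN3 spleen had 109.7, 72.0 and 151 CPM, against 2.62, 15.2 and 4.79 CPM in WT CD8 (log2 difference 3.87, SE 0.58, adjusted p = 0.000487), a 14.6-fold gap, with WT CD8 2 the highest of the normal spleen libraries. LN3 thymus had 99.5, 106 and 55.7 CPM, against 35.7, 43.5 and 58.8 CPM in WT thymocytes, and LN3 thymus 3 lay below WT thymocyte 3 (log2 difference 0.92, SE 0.52, adjusted p = 0.306). Cdc45, the helicase activator, differed by 3.37 in the spleen and 0.67 in the thymus, and Gins1, a subunit of the GINS complex, by 3.33 and 0.45. Gins2, from the same complex, differed by 2.86 in the spleen and was the helicase gene with a negative thymus value (log2 difference -0.49, SE 0.39, adjusted p = 0.494), with 74.0, 86.3 and 45.1 CPM in LN3 thymus, against 74.6, 70.8 and 143 CPM in WT thymocytes. This value was not called under any setting and turned positive with limma on the deposited log2 values (0.53).

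At the fork, DNA polymerase alpha with primase lays down primers, and its genes had the largest positive thymus differences of the 36. Prim1 had 99.8, 103 and 73.8 CPM in LN3 thymus, against 36.4, 43.7 and 40.9 CPM in WT thymocytes. The lowest leukaemia library was well above the highest normal one, a 2.29-fold difference (log2 difference 1.19, SE 0.26, adjusted p = 0.0119). In the spleen Prim1 had 102, 88.1 and 146 CPM in LN3 spleen, against 12.7, 20.9 and 17.0 CPM in WT CD8 (log2 difference 2.73, SE 0.28, adjusted p = 3.80e-05). The thymus call held in 20 of 21 alternatives and was lost without WT thymocyte 1 (edgeR adjusted p = 0.0682, range 0.00185 to 0.0682 over the alternatives).

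Prim2, the other primase subunit, and Pola1, the catalytic subunit of polymerase alpha, had ranges without overlap in the thymus but missed the threshold. The values were log2 difference 1.06, SE 0.37, adjusted p = 0.0851 for Prim2 and log2 difference 1.41, SE 0.49, adjusted p = 0.0849 for Pola1. Prim2 was called higher without LN3 thymus 3 or without LN3 spleen 2. Pola1 was called higher with DESeq2, with limma and with the CT010467.1 term. Pola1 had 146, 145 and 94.8 CPM in LN3 thymus, against 57.0, 73.5 and 13.9 CPM in WT thymocytes, where the low WT thymocyte 3 is the library with the GC slope and Pola1 transcripts are 41.5% GC. Pole, the leading-strand polymerase, missed the threshold by little (log2 difference 0.89, SE 0.28, adjusted p = 0.0557). It was called with DESeq2 and also without WT thymocyte 3. Pold1, of the lagging-strand polymerase, differed by 0.57 in the thymus and 1.95 in the spleen.

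Pcna, the sliding clamp that tethers polymerases, was not called in the thymus. It had 389.8, 469.6 and 241 CPM in LN3 thymus, against 279, 285 and 412 CPM in WT thymocytes, and the ranges overlapped widely (log2 difference 0.17, SE 0.35, adjusted p = 0.811). In the spleen it had 519, 283 and 686 CPM in LN3 spleen, against 89.6, 134 and 101 CPM in WT CD8 (log2 difference 2.19, SE 0.36, adjusted p = 0.000935).

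Rfc3, a subunit of the complex that loads the clamp, had 39.5, 55.6 and 32.8 CPM in LN3 thymus, against 18.7, 16.7 and 31.0 CPM in WT thymocytes, where WT thymocyte 3 came just under LN3 thymus 3 (log2 difference 0.94, SE 0.36, adjusted p = 0.119). LN3 spleen had 57.0, 39.9 and 90.7 CPM, against 5.41, 9.21 and 6.55 CPM in WT CD8 (log2 difference 3.14, SE 0.39, adjusted p = 0.000132). The other loader genes, Rfc4 and Rfc5, differed by 0.72 and 0.44 in the thymus and by 2.98 and 2.08 in the spleen.

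Rpa2, a subunit of the complex that coats single-stranded DNA, showed the smallest spleen difference of all 36 genes. It had 102, 60.0 and 133 CPM in LN3 spleen, against 29.3, 37.2 and 32.4 CPM in WT CD8 (log2 difference 1.57, SE 0.36, adjusted p = 0.00627), and the call was lost with the CT010467.1 term (edgeR adjusted p = 0.160, range 0.000599 to 0.160 over the alternatives). LN3 thymus had 75.2, 95.1 and 51.8 CPM, against 45.1, 38.3 and 83.5 CPM in WT thymocytes, with overlap (log2 difference 0.41, SE 0.35, adjusted p = 0.528).

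Lig1, the ligase that seals Okazaki fragments, had the largest spleen difference of the fork genes, 10.4-fold. Its levels were 361, 209 and 426 CPM in LN3 spleen, against 23.2, 47.5 and 25.0 CPM in WT CD8 (log2 difference 3.38, SE 0.42, adjusted p = 0.000136). LN3 thymus had 257, 308 and 180.0 CPM, against 119.7, 117 and 231 CPM in WT thymocytes, with WT thymocyte 3 above LN3 thymus 3 (log2 difference 0.67, SE 0.38, adjusted p = 0.313). Fen1, the nuclease that trims the fragments, differed by 2.51 in the spleen and 0.25 in the thymus.

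The nucleotide supply genes and Uhrf1 had the largest spleen median of the 5 role groups, with no thymus call. Rrm1 and Rrm2 encode the large and small subunits of ribonucleotide reductase, which makes deoxynucleotides. Rrm1 had 347, 431 and 324 CPM in LN3 thymus, against 204, 227 and 343 CPM in WT thymocytes, with overlap at WT thymocyte 3 (log2 difference 0.51, SE 0.39, adjusted p = 0.469). LN3 spleen had 527, 389 and 948 CPM of Rrm1, against 41.8, 96.3 and 44.8 CPM in WT CD8 (log2 difference 3.35, SE 0.43, adjusted p = 0.000165).

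Rrm2 rose 12.5-fold in the spleen comparison, with 368, 207 and 526 CPM in LN3 spleen, against 13.3, 58.4 and 16.2 CPM in WT CD8 (log2 difference 3.64, SE 0.57, adjusted p = 0.000646). WT CD8 2 was again the highest normal library, below every LN3 spleen library. In the thymus Rrm2 had 249, 271 and 142 CPM in LN3 thymus, against 209.7, 225 and 313 CPM in WT thymocytes, and its small negative value (log2 difference -0.17, SE 0.51, adjusted p = 0.876) turned positive without LN3 thymus 3 or without WT thymocyte 3.

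Tk1, the thymidine salvage kinase, had 98.8, 117 and 66.0 CPM in LN3 thymus, against 45.2, 45.6 and 79.5 CPM in WT thymocytes, with WT thymocyte 3 above LN3 thymus 3 (log2 difference 0.73, SE 0.34, adjusted p = 0.214). Its spleen levels were 147, 91.4 and 178 CPM in LN3 spleen, against 17.5, 25.8 and 13.7 CPM in WT CD8 (log2 difference 2.87, SE 0.37, adjusted p = 0.000176). Tyms, thymidylate synthase, differed by 3.16 in the spleen and 0.63 in the thymus.

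Uhrf1, which brings the maintenance methyltransferase to newly copied DNA, had the largest spleen difference of the 36 genes, 15.0-fold. It had 549, 323 and 702 CPM in LN3 spleen, against 19.2, 60.1 and 25.3 CPM in WT CD8 (log2 difference 3.91, SE 0.51, adjusted p = 0.000209). The thymus value was near 0, with 436, 525 and 249 CPM in LN3 thymus, against 298, 300.1 and 569 CPM in WT thymocytes (log2 difference 0.053, SE 0.46, adjusted p = 0.959), and its sign changed in 6 of 21 alternatives, among them library totals and upper-quartile scaling.

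Of the E2F and cyclin E genes, E2f1 and E2f2 encode activators of the family that binds sites like the octamer above. E2f1 had 79.4, 52.6 and 26.5 CPM in LN3 thymus, against 26.1, 25.3 and 46.6 CPM in WT thymocytes, a wide overlap (log2 difference 0.69, SE 0.46, adjusted p = 0.400). In the spleen E2f1 had 59.8, 41.0 and 49.1 CPM in LN3 spleen, against 4.86, 14.5 and 5.49 CPM in WT CD8 (log2 difference 2.59, SE 0.49, adjusted p = 0.00209).

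E2f2 was the 1 gene of the 36 that was lower in LN3 thymus. It had 92.3, 90.7 and 57.0 CPM in LN3 thymus, against 359, 291 and 598 CPM in WT thymocytes, so every leukaemia library was far below every normal one (log2 difference -2.38, SE 0.43, adjusted p = 0.00372). This is a 5.20-fold lower level, and the call held in all 21 alternatives, with log2 differences of -2.59 to -2.01. In the spleen E2f2 had 157, 89.3 and 174 CPM in LN3 spleen, against 26.6, 71.5 and 33.4 CPM in WT CD8, and was called higher (log2 difference 1.68, SE 0.42, adjusted p = 0.00945). That spleen call was lost with the CT010467.1 term (edgeR adjusted p = 0.147, range 0.00102 to 0.147 over the alternatives).

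A ratio of E2f2 to E2f1 within a library does not depend on the scaling between libraries. It was chosen after the values were seen, so it is given without a test. The ratio was 1.16, 1.72 and 2.15 in LN3 thymus, against 13.7, 11.5 and 12.8 in WT thymocytes. In the spleen libraries it was 2.63, 2.18 and 3.55 in LN3 spleen, against 5.47, 4.92 and 6.07 in WT CD8. Both leukaemia groups therefore lay below both normal groups, with means of 1.68 ± 0.494 in LN3 thymus and 12.7 ± 1.12 in WT thymocytes, and of 2.78 ± 0.697 in LN3 spleen and 5.49 ± 0.575 in WT CD8 (SD, n = 3 each).

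**Figure D3:**
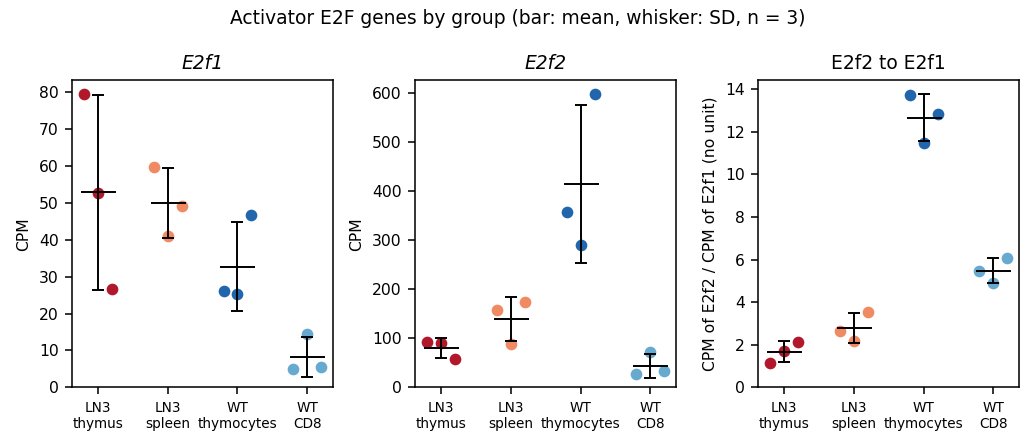
The y axes give CPM of E2f1 (left), CPM of E2f2 (middle) and the ratio of E2f2 to E2f1 in each library (right), with points for the 3 libraries of each group, a bar for the mean and whiskers for the SD. WT thymocytes stand highest for E2f2, with 359, 291 and 598 CPM, and for the ratio, with 11.5 or more.

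Cyclin E, encoded by Ccne1 and Ccne2, binds the kinase Cdk2 to start S phase. Ccne1 had 13.6, 34.9 and 21.3 CPM in LN3 thymus, against 19.1, 18.6 and 30.7 CPM in WT thymocytes, with a sign that changed in 8 of 21 alternatives (log2 difference 0.026, SE 0.43, adjusted p = 0.978). LN3 spleen had 62.6, 30.4 and 87.1 CPM of Ccne1, against 13.2, 24.6 and 21.0 CPM in WT CD8 (log2 difference 1.62, SE 0.43, adjusted p = 0.0143), and the call failed in 4 of 21 alternatives, among them leaving out LN3 spleen 3 or WT CD8 1. Ccne2 had 44.8, 31.9 and 25.5 CPM in LN3 thymus, against 23.3, 30.7 and 9.20 CPM in WT thymocytes, where the low WT thymocyte 3 goes with a transcript of 35.1% GC (log2 difference 0.69, SE 0.55, adjusted p = 0.495). In LN3 spleen Ccne2 had 33.5, 38.3 and 95.1 CPM, against 2.29, 9.52 and 4.75 CPM in WT CD8 (log2 difference 3.32, SE 0.60, adjusted p = 0.00163).

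Set against WT thymocytes rather than WT CD8, LN3 spleen had 15 genes called higher and 1 lower, beside 11.3% and 8.52% of all genes. The median was 1.05 (2.07-fold) with 34 of 36 genes positive, and the ranges did not overlap in 16 genes that were higher, as in 18.4% of all genes. This comparison shares the WT thymocytes with the thymus comparison and the LN3 spleen libraries with the spleen comparison. The 15 were Orc1, Orc6, Cdt1, Mcm4, Mcm6, Pola1, Prim1, Prim2, Pole, Rfc3, Rfc4, Rrm1, Tyms, Tk1 and Ccne1. Prim1 again had the smallest p (log2 difference 1.47, SE 0.27, adjusted p = 0.00334) and E2f2 was again the lower gene (log2 difference -1.57, SE 0.41, adjusted p = 0.0209). The count of 15 was 1 without LN3 spleen 3 or without WT thymocyte 1, 6 without LN3 spleen 1, 3 without WT thymocyte 2 and 23 without WT thymocyte 3, so single libraries decide it.

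Leukaemia cells of the 2 organs were compared directly. None of the 36 genes was called in LN3 spleen against LN3 thymus by edgeR, beside 0.694% of all genes called higher and 0.0287% lower. DESeq2 and limma also called 0. In this contrast 1 gene had an unadjusted p under 0.05, Ccne1, with 62.6, 30.4 and 87.1 CPM in LN3 spleen, against 13.6, 34.9 and 21.3 CPM in LN3 thymus (log2 difference 1.37, SE 0.43, adjusted p = 0.242). Differences were positive in 35 of 36 genes with a median of 0.427, against -0.049 over all genes, and ran from -0.081 for E2f1 to 1.37 for Ccne1. Without LN3 spleen 3 the median was 0.148 and without LN3 thymus 3 it was 0.208. Orc1, at 34.4, 27.7 and 62.2 CPM in LN3 spleen and 24.1, 25.9 and 18.8 CPM in LN3 thymus, was the 1 gene whose ranges did not overlap (log2 difference 0.86, SE 0.45, adjusted p = 0.665), where 6.22% of all genes were so separated with LN3 spleen higher and 5.24% with it lower. E2f2 had a 1.75-fold difference that was not called (log2 difference 0.81, SE 0.41, adjusted p = 0.644), and the direction of E2f1 changed with limma and without LN3 thymus 1 or LN3 spleen 2.

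Normal cells of the 2 organs were compared in the same way. In WT CD8 against WT thymocytes, 30 of 36 genes were lower, beside 8.49% of all genes, and none was higher, beside 7.24%. All 36 values were negative (Ccne1 turned positive with limma, without WT thymocyte 3 and with the CT010467.1 term) with a median of -1.68, against 0 over all genes, and ranges did not overlap in 33 genes that were lower, against 19.0% of all genes. Uhrf1 (log2 difference -3.48, SE 0.50, adjusted p = 0.000705), Gins2 (log2 difference -3.26, SE 0.43, adjusted p = 0.000397) and E2f2 (log2 difference -3.25, SE 0.44, adjusted p = 0.000469) had the largest falls. The 6 genes not called were Cdt1, Mcm4, Pola1, Prim2, Rpa2 and Ccne1, of which Ccne1 had 13.2, 24.6 and 21.0 CPM in WT CD8, against 19.1, 18.6 and 30.7 CPM in WT thymocytes (log2 difference -0.22, SE 0.43, adjusted p = 0.799). The count was 19 without WT thymocyte 3, 13 without WT CD8 1 and 16 without WT CD8 3.

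The interaction term tests whether the difference between leukaemia and normal cells was larger in the spleen than in the thymus. It was positive for all 36 genes with a median of 2.19 and passed for 20, beside 3.29% of all genes. The 20 included all 5 nucleotide supply genes with Uhrf1, 7 of 12 fork genes, 5 of 10 helicase genes and 2 of 5 licensing genes. E2f2 had the largest value (log2 difference 4.06, SE 0.59, adjusted p = 0.00360), then Uhrf1 (log2 difference 3.86, SE 0.67, adjusted p = 0.00704) and Rrm2 (log2 difference 3.82, SE 0.75, adjusted p = 0.0128). Not called by edgeR were 5 of the 6 subunits of the Mcm2-7 ring, E2f1, Ccne1 and Ccne2 among others. The count ran from 6 (without WT CD8 1) to 24 (without WT CD8 2) when 1 library was left out, and was 5 with the CT010467.1 term, 10 without LN3 thymus 1 or WT thymocyte 1, 8 without LN3 thymus 3, LN3 spleen 3 or WT CD8 3, 11 without LN3 spleen 1 and 12 without WT thymocyte 3. With DESeq2 the count was 29, and the genes called then included all 6 subunits of the Mcm2-7 ring and Ccne2. E2f2, Uhrf1, Gins2, Rrm2 and Tyms were called in all 20 alternatives that could be fitted.

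Within a group, the genes ranked the libraries alike. LN3 thymus 3 had the lowest value of its group for 35 of 36 genes (all but Ccne1), and LN3 thymus 2 the highest for 30. LN3 spleen 3 was highest for 33 genes and LN3 spleen 2 lowest for 35 (all but Ccne2). WT thymocyte 3 was highest for 33 genes and WT CD8 2 for 35 (all but Cdt1). The spread between replicates is thus shared by the 36 genes, which are not independent of each other within a library. The ranking was not counted over all genes, so whether it is particular to these genes was not tested.

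The median log2 CPM of the 36 genes was next set beside that of 20 G2/M genes, a list of mitotic genes. The difference of these medians was 0.241, -0.0978 and -0.587 in LN3 thymus and -0.528, -0.230 and -0.0243 in WT thymocytes, so the thymus groups overlap. It was -0.0600, -0.254 and -0.222 in LN3 spleen, against 1.09, 0.665 and 0.936 in WT CD8. In WT CD8 the G2/M genes lay further below the other groups than the replication genes did. Of the 20 G2/M genes, 20 were higher in LN3 spleen than in WT CD8 (median 3.73), beside 17.9% of all genes. In the thymus edgeR called 0 (median 0.388, with 1 at an unadjusted p under 0.05 and 18 positive), beside 6.06% of all genes called higher and 5.21% lower. The smallest spleen p-values were those of the mitotic genes Tpx2 (log2 difference 3.90), Plk1 (3.99) and Bub1b (3.83).

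**Figure D4:**
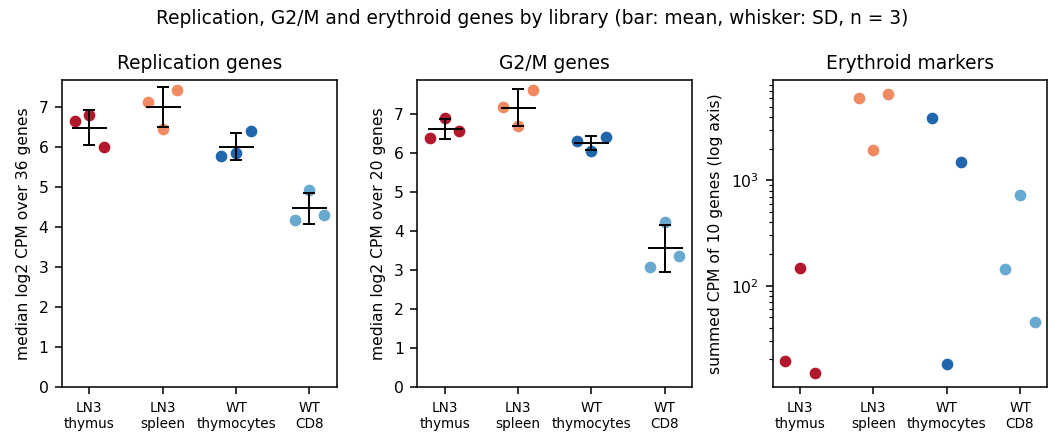
The y axes give the median log2 CPM of the 36 replication genes (left) and of 20 G2/M genes (middle) and, on a log axis, the summed CPM of 10 erythroid markers (right). Points are the 3 libraries of a group, bars the mean and whiskers the SD in the left and middle panels. WT CD8 lies lowest in the left and middle panels, and in the right panel LN3 spleen has 1950.4 to 6587 CPM.

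Markers of other cells differed between the groups. Of 11 erythroid markers 10 were in the table, all with counts in each group, and their sum was 1950.4 to 6587 CPM in LN3 spleen, against 45.2 to 728 in WT CD8, and 14.7 to 146 in LN3 thymus, against 18.2 to 3939.8 in WT thymocytes. WT CD8 2, the WT CD8 library with the highest replication genes, had the 728 CPM and also the highest sum of 9 myeloid markers (the range was 293 to 1606 CPM in LN3 spleen and 206 to 2977 CPM in WT CD8). Without WT CD8 2 and WT thymocyte 3 together, all 36 genes were still called in the spleen, with a median of 3.06. The 8 markers of double-positive thymocytes, the main normal precursor, summed to 1041 to 2191 CPM in LN3 thymus, against 8165 to 11736 CPM in WT thymocytes. NK cell markers summed to 4.16 to 10.8 CPM in LN3 spleen, against 123 to 359 CPM in WT CD8, and B cell markers to 286 to 2147 CPM, against 499 to 1431 CPM in WT CD8. Markers of naive CD8 T cells summed to 737 to 879.9 CPM in LN3 spleen, against 2503 to 3809 CPM in WT CD8. The part of these cells in the replication values was not tested.

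Against the median of the 36 genes in its own library, a gene shows its place within the programme, free of the level of the whole programme. Placed this way, Gins2, Pcna, Rrm2, Uhrf1 and E2f2 were lower in both LN3 thymus and LN3 spleen than in WT thymocytes without overlap, and Mcm10, Rfc3 and Tk1 were higher in both. In all, 10 genes were higher and 5 lower in LN3 thymus, and 4 higher and 5 lower in LN3 spleen. Both comparisons share the WT thymocytes. Against WT CD8, 12 were higher and 7 lower in LN3 spleen. The higher included Mcm10, Rfc3, Tk1, Rrm2 and Uhrf1, the lower included Pcna and E2f2, and Gins2 was in neither. The placements were read from CPM, and the thymus difference of Gins2 turned positive on the deposited log2 values. No share over all genes was computed. These placements are a description without a test.

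Other genes of the pathway were read from 3 lists. Of all genes tested, 6.06% were higher and 5.21% lower in the thymus, and 17.9% higher and 13% lower in the spleen. Of 35 other licensing and fork factors, 2 were higher in the thymus, a share near that of all genes, and none lower, with 34 positive and a median of 0.645, and 28 were higher and none lower in the spleen, with a median of 1.69. The 2 were Topbp1, a scaffold for firing origins, and Tipin, of the fork protection complex. Topbp1 had 438, 385 and 339.9 CPM in LN3 thymus, against 193, 217 and 155 CPM in WT thymocytes (log2 difference 1.04, SE 0.24, adjusted p = 0.0138), and Tipin 76.2, 95.4 and 56.0 CPM, against 29.0, 35.1 and 22.5 CPM in WT thymocytes (log2 difference 1.39, SE 0.37, adjusted p = 0.0283). In the spleen the smallest p-values were those of Ticrr (log2 difference 3.60), Clspn (3.44) and Chaf1a (3.17), which act in origin firing, the fork checkpoint and chromatin assembly. The 7 not called there were Orc3, Orc4, Donson, Mcmbp, Pold4, Pole2 and Pole4.

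Of 13 other nucleotide supply genes, 3 were higher and 2 lower in the thymus, and 9 higher and 1 lower in the spleen. Cad, an enzyme of the first steps of pyrimidine synthesis, had 376, 409 and 203 CPM in LN3 thymus, against 107, 95.7 and 184 CPM in WT thymocytes (log2 difference 1.35, SE 0.35, adjusted p = 0.0263). Impdh2, of guanine nucleotide synthesis, and Shmt1, of folate metabolism, were the other higher genes, with log2 differences of 1.34 and 1.31. In the spleen Dut, which clears dUTP, and Shmt1 were the higher genes with the smallest p-values, with log2 differences of 3.56 and 2.68. The 3 thymus genes stand beside Tyms, Rrm1 and Rrm2, which were not called in the thymus.

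Samhd1, an enzyme that breaks deoxynucleotides down, was lower in both organs. It had 9.11, 16.4 and 14.1 CPM in LN3 thymus, against 87.4, 103 and 113 CPM in WT thymocytes (log2 difference -2.94, SE 0.45, adjusted p = 0.00143). In the spleen it had 107, 33.1 and 33.7 CPM in LN3 spleen, against 486, 774 and 510.0 CPM in WT CD8 (log2 difference -3.35, SE 0.46, adjusted p = 0.000267). Dck, which salvages deoxycytidine, was lower in the thymus (log2 difference -0.87, SE 0.23, adjusted p = 0.0307) and higher in the spleen (log2 difference 1.31, SE 0.24, adjusted p = 0.00157).

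Of 21 other E2F and G1 regulators, 3 were higher and 3 lower in the thymus, and 15 higher and 2 lower in the spleen. D cyclins drive the step that frees E2F, and their 3 genes split. Ccnd1 had 73.2, 102 and 147 CPM in LN3 thymus, against 5.61, 4.29 and 7.83 CPM in WT thymocytes (log2 difference 4.19, SE 0.65, adjusted p = 0.00164). In the spleen Ccnd1 had 95.0, 208 and 213 CPM in LN3 spleen, against 17.4, 9.24 and 2.01 CPM in WT CD8 (log2 difference 4.18, SE 0.65, adjusted p = 0.000631).

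Ccnd2 took the opposite direction. It had 11.7, 15.8 and 23.9 CPM in LN3 thymus, against 172, 167 and 292 CPM in WT thymocytes (log2 difference -3.61, SE 0.38, adjusted p = 0.000143), and 55.7, 25.7 and 30.8 CPM in LN3 spleen, against 554, 567 and 621 CPM in WT CD8 (log2 difference -3.96, SE 0.39, adjusted p = 2.99e-05). Ccnd3 was lower in the thymus, with 336, 349 and 159.6 CPM in LN3 thymus, against 894, 634 and 1569.7 CPM in WT thymocytes (log2 difference -1.88, SE 0.40, adjusted p = 0.00937), and not called in the spleen (log2 difference 0.24, SE 0.38, adjusted p = 0.650).

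E2f3, the third activator E2F, was higher in both organs, with 76.0, 79.9 and 68.0 CPM in LN3 thymus, against 34.3, 30.8 and 34.9 CPM in WT thymocytes (log2 difference 1.16, SE 0.25, adjusted p = 0.0101), and a spleen log2 difference of 2.69. Skp2, the ubiquitin ligase subunit that removes a brake on S phase, had the smallest p of the list in the spleen (log2 difference 3.10, SE 0.28, adjusted p = 1.68e-05). E2f6, a repressor of the family, was higher in both too (1.22 in the thymus and 1.60 in the spleen, on the log2 scale). Rbl2, a pocket protein that holds E2F targets down in resting cells, was lower in both, with 65.2, 67.8 and 85.4 CPM in LN3 thymus, against 150.1, 132 and 143 CPM in WT thymocytes (log2 difference -0.96, SE 0.22, adjusted p = 0.0145), and -0.85 in the spleen. None of the D cyclins, Samhd1 or Rbl2 had leukaemia and normal libraries that overlapped in the thymus. All of these genes had already been called there. Of the 21 genes of this list, 8 were so separated with LN3 thymus higher and 4 with it lower, beside 14.4% and 12.8% of all genes.

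**Figure D5:**
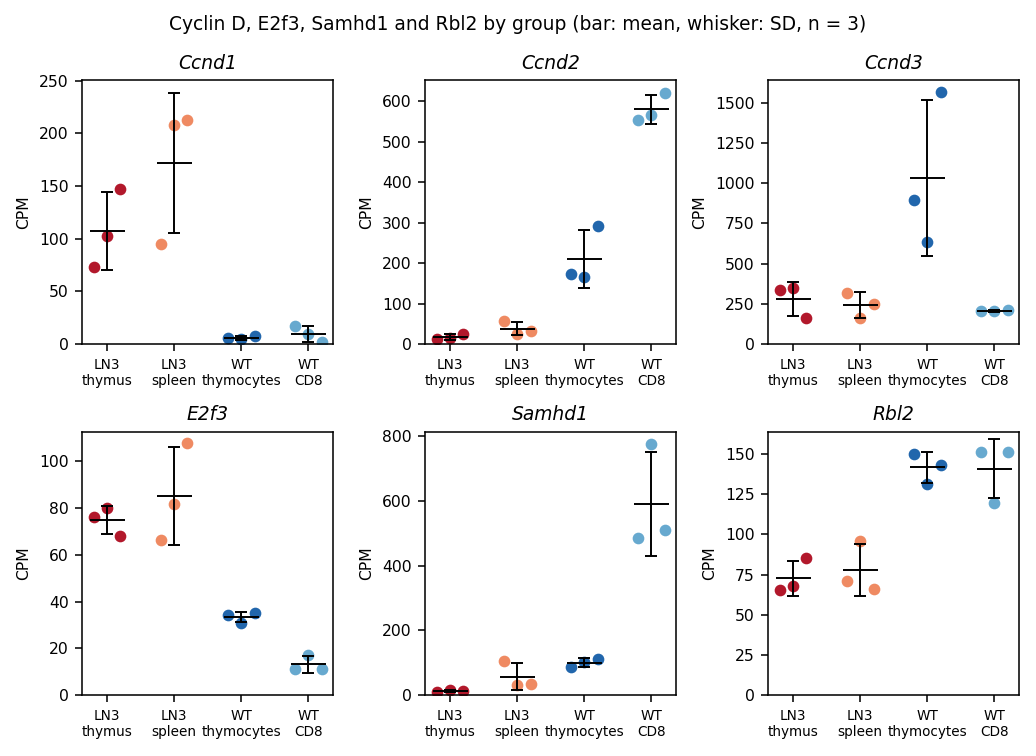
The y axes give CPM of 6 genes outside the 36 in each library of the 4 groups, with a bar for the mean and whiskers for the SD over 3 libraries. Ccnd1 and E2f3 stand higher in both LN3 groups than in both normal groups, and Ccnd2 and Rbl2 stand lower.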

How the data were processed

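Poly(A) RNA libraries of 12 mouse samples in 4 groups of 3 were analysed. The authors deposited a table of estimated counts per gene, in which every value was already whole, and a table of variance-stabilized log2 values. Per the submitters' processing notes, the tools were FastQC, kallisto 0.46.1 and DESeq2, with build GRCm38. Depth was 12694571 to 42483898 estimated counts per library as deposited.

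Genes with low counts were filtered (filterByExpr, 20897 of 54351 kept), libraries were scaled by TMM, and 4 group means were fitted with edgeR 4.0.16 (robust quasi-likelihood, 8 residual degrees of freedom) in R 4.3.3. P-values were adjusted by Benjamini-Hochberg over all genes tested, with a threshold of 0.05, in 6 contrasts. Alternatives used DESeq2 1.42.0, limma 3.58.1 on the deposited log2 values, other scalings, no filter, single libraries left out and a replicate block. The term for CT010467.1 and the joint leaving out of WT thymocyte 3 and WT CD8 2 were chosen after seeing the data. The steps were tested on simulated data. Promoters came from RefSeq.

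The 36 genes and all lists were chosen with earlier results of these data known. Named with full values were Mcm2, Cdc6, Pcna, Rrm2, Uhrf1 and E2f1, and in each role group the gene with the smallest p in the thymus, those with the largest and smallest difference in the spleen, and that with the smallest p between LN3 spleen and LN3 thymus. Of the other lists, up to 3 called genes with the smallest p in each organ and every gene against the list's main direction were named. Genes described outside these rules were chosen after their values were seen. One gene of the nucleotide supply list is not reported here.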

Additional observations from a re-analysis of the deposited data

Results flagged for a closer look

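For 20 of the 36 genes the difference between leukaemia and normal cells was itself larger in the spleen than in the thymus by the interaction test (edgeR, adjusted over all genes), beside 3.29% of all genes with a larger spleen difference. The count was 29 with DESeq2, 5 with the CT010467.1 term and 6 (without WT CD8 1) to 24 (without WT CD8 2) when 1 library was left out. The values below are the spleen log2 difference (LN3 spleen over WT CD8) minus the thymus log2 difference (LN3 thymus over WT thymocytes).

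Among licensing genes it was 2.61 for Orc1 and 2.21 for Gmnn. Among helicase genes it was 2.31 for Mcm7, 2.95 for Mcm10, 2.70 for Cdc45, 2.87 for Gins1 and 3.35 for Gins2. Fork genes had 1.54 (Prim1), 1.73 (Pole), 2.02 (Pcna), 2.20 (Rfc3), 2.26 (Rfc4), 2.26 (Fen1) and 2.71 (Lig1). Nucleotide supply genes had 2.84 (Rrm1), 3.82 (Rrm2), 2.53 (Tyms) and 2.14 (Tk1), and Uhrf1 had 3.86. The value of 4.06 for E2f2 joins a lower level in LN3 thymus and a higher level in LN3 spleen, each called against its own normal cells.

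The normal cells differ in these genes too, with a median of -1.68 over the 36 genes in WT CD8 against WT thymocytes, and LN3 spleen against LN3 thymus had a median of 0.427 with no call.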

How the results depend on the processing

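Of 2375 values of the 19 genes named with full values, over 6 contrasts and their alternatives, 2169 stayed on their side of the threshold with the same sign, 152 lost the call, 29 gained one and 25 changed sign, all of these last without a call. The spleen count of 36 was 35 to 36 when 1 library was left out. In the thymus, 1 gene higher became 3 with DESeq2, 2 with limma, 2 with the CT010467.1 term, 3 without WT thymocyte 3 and WT CD8 2, and 0 to 4 with 1 library left out, while the 1 lower stayed. For LN3 spleen against WT thymocytes, 15 became 7 with library totals, 7 with only these groups in the fit, 4 with the term, 27 without both libraries and 1 to 23 with 1 left out (lower, 0 to 1). In WT CD8 against WT thymocytes, 30 became 13 to 31. The interaction count of 20 was 29 with DESeq2, 5 with the term and 6 to 24 with 1 left out. The cause was not tested.

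The labels do not say that replicate numbers pair the samples. Of 18 same-numbered pairs, 4 had a correlation over 0.1 (-0.528 to 0.390), and 2 of 12 libraries correlated best with their own number. LN3 thymus and LN3 spleen samples carry the same leukaemia numbers, and whether those with the same number came from 1 mouse is not given in the sources used here. These 3 pairs had correlations of -0.150, -0.528 and -0.0412, and none of the 36 genes was called between LN3 spleen and LN3 thymus with the block or without it. With the replicate number as a block, 7 genes were higher in LN3 spleen than in WT thymocytes and 8 passed the interaction test.

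Sign changes of the 19 genes in the thymus were, for Ccne1, -0.015 (DESeq2), -0.22 (library totals), -0.16 (upper quartile), -0.0011 (limma), -0.30 (CT010467.1 term) and -0.38 to 0.33 with 1 library left out. Uhrf1 had -0.094, -0.10 and -0.0057 with totals, upper quartile and the term, and -0.18 to 0.44 with 1 left out. Pcna had -0.0071 with totals and -0.044 to 0.40 with 1 left out. Rrm2 had 0.029 without both libraries and -0.35 to 0.065 with 1 left out. Ccne1 in WT CD8 against WT thymocytes had 0.38 (limma), 0.11 (the term) and -0.41 to 0.059 with 1 left out. E2f1 in LN3 spleen against LN3 thymus had 0.12 (limma) and -0.40 to 0.35 with 1 left out. Of the other members, Gins2 turned to 0.53 (limma) and Fen1 to -0.048 (without LN3 thymus 2) in the thymus, and Gins2 to as high as 0.84 in LN3 spleen against WT thymocytes. In LN3 spleen against LN3 thymus, Gins2, Prim2 and Pold1 also changed sign. None of these values was called. A fit of only 2 groups gives no interaction.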
